A study of Mus musculus with 16 samples.

Results

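The genes described here are 7 matrix metalloproteases (Mmp2, Mmp3, Mmp9, Mmp10, Mmp13, Mmp14 and Mmp19) and 3 tissue inhibitors of metalloproteases (Timp1, Timp2 and Timp3). They were taken by name, with every array probe that carries a current or older symbol of theirs, and make up 10 of the 27670 named genes and 14 of the 41174 probes on the array. Of the 10, 9 passed the filter on signal and were tested among 18992 genes; Mmp13 did not pass. Messenger RNA was profiled in 4TO7, a mouse mammary carcinoma line related to 4T1, after retroviral delivery of miR-200 miRNAs or of CDH1, which codes for E-cadherin, to ask how gene expression responds to them. Each of the 16 arrays set the RNA of 1 culture in 1 dye against a reference pooled from 11 mouse cell lines in the other dye, with 2 arrays in each of 8 groups. The groups were Cluster 1 with a Puro vector as its control, Cluster 2 with a Hygro vector, Clusters 1+2 with the Hygro and Puro vectors together, and CDH1 with a Puro vector of its own. All cells, controls included, carried pMSCV retroviral vectors with puromycin or hygromycin resistance and grew in medium with 10% serum. The series calls the repeats of a group biological replicates, but no label says whether they came from separate infections, and a p-value here measures only how far these arrays spread.

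Matrix metalloproteases are zinc enzymes that are made as inactive precursors and that cut collagens, laminins, proteoglycans and many cell surface proteins. The TIMPs block them by occupying the active site, and TIMP2 in addition takes part in the activation of the MMP2 precursor by MMP14 at the cell surface. In mammary tumours these enzymes are known for their part in matrix breakdown and invasion, and many are made by stromal cells as well as by carcinoma cells.

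The miRNAs that the vectors were built to express belong to 1 family that falls into 2 groups by seed, the bases that lead target recognition. The 5 mature sequences are shown because they are the agents compared throughout, in RefSeq's version on build GRCm38.p6, with the seed (bases 2 to 8) in capitals. Those of the first seed are
mmu-miR-200a-3p: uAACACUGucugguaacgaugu
mmu-miR-141-3p: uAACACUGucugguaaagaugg
and those of the second seed, which differs from it within the seed itself, are
mmu-miR-200b-3p: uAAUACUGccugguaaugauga
mmu-miR-429-3p: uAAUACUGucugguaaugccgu
mmu-miR-200c-3p: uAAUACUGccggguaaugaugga
In the mouse genome miR-200a, miR-200b and miR-429 lie on chromosome 4 and miR-200c and miR-141 on chromosome 6, so each genomic cluster holds both seeds. The labels do not say which genomic cluster is Cluster 1 and which is Cluster 2.

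Values are log2 ratios of sample over reference, so 1 unit is a 2-fold difference, and a value of 1 gene is compared between groups, never with another gene. Between 12559 and 28411 probes per array were well above background, and the number of arrays, 2 a group, limits the precision. The repeats of a group correlated at r = 0.938 to 0.981 across genes. On 8 arrays, those of Clusters 1+2, Cluster 2 and the vectors with Hygro, the sample was in Cy3, and on the other 8 it was in Cy5. The levels of Mmp2, Mmp9, Mmp10, Mmp13, Mmp19 and Timp3 on all Cy3 arrays stood apart from those on all Cy5 arrays, controls included, and the dye and the set of samples cannot be told apart, so each overexpression is set against its own vector. The array does not measure mature miRNAs. Cdh1, a gene that miR-200 miRNAs are known to raise, was higher than in its own vector by 1.21 in Cluster 1 (SE 0.126), 1.93 in Cluster 2 and 2.86 in Clusters 1+2 (limma adjusted p = 9.49e-05, 2.88e-06 and 8.76e-09). In CDH1 it stood at 0.57 and 0.77, against 0.03 and 0.09 in its vector, where it was not well above background (adjusted p = 0.00569), and whether the delivered CDH1 matches this probe was not tested. Of the marker genes of other cells, 6 of 7 mesenchymal, 2 of 5 epithelial, 1 of 7 leucocyte and 0 of 4 endothelial genes were well above background on all 16 arrays. The rest of the epithelial genes, Krt7, Krt19 and Epcam, were so on 15 arrays, and the mesenchymal Pdgfrb on 13. Among leucocyte genes Cd68, Adgre1 and Lyz2 were so on 15, Csf1r on 14, Ptprc on 3 and Elane on 0. For endothelial genes the number was 14 (Tek), 10 (Kdr), 5 (Pecam1) and 4 (Cdh5). In RNA from whole cultures, fewer cells that express a gene and less of its RNA per cell cannot be told apart.

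Mmp3, or stromelysin 1, an enzyme that cuts proteoglycans, laminin and fibronectin and activates other metalloproteases, was lower with each miRNA vector and by far the most with both clusters. It fell 17.8-fold in Clusters 1+2, 3.35-fold in Cluster 1 and 2.17-fold in Cluster 2. No other member was called with all 3 miRNA vectors. In CDH1 cells its value was 1.17-fold below that of their own vector, which did not pass the test.

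The gene lies on chromosome 9 in the same cluster of metalloprotease genes as Mmp10 and Mmp13, and its probe, A_51_P255699, at chr9:7453874-7453933 on the older build mm7 that the array files use. Its promoter, the 250 bases before the start (chr9:7445572-7445821, plus strand, GRCm38.p6, RefSeq), is shown beside that of Mmp10 because these neighbours are both stromelysins and both fell in Clusters 1+2. Capitals mark an AP-1 motif (TGAGTCA), an ETS motif (AGGAAG) and a TATA motif (TATAAA).
Mmp3: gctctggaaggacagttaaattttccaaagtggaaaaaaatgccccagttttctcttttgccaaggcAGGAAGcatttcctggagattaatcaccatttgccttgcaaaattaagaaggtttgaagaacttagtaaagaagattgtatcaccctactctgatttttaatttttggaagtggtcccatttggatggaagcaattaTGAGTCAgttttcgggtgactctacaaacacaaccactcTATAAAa
In the Mmp3 window the AP-1 motif lies 46 to 40 bases before the start, the ETS motif 183 to 178 and the TATA motif 7 to 2. Searched on both strands, TGAGTCA or TGACTCA stood in 4.46% of 32851 promoter windows of this length from 27025 genes, AGGAAG or CTTCCT in 29.5%, and TATAAA or TTTATA in 12.4%. Such a match is a description of the letters and not evidence of binding.

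On the Cy5 arrays Mmp3 stood at 2.53 and 2.47 (repeats A and B) in the Puro vector for Cluster 1 and at 0.64 and 0.88 in Cluster 1. Both Cluster 1 arrays were thus below both of their controls, and no other of the 18973 genes with a value in this comparison had a lower log2 fold change. The fold change was -1.74 (SE 0.0996, 95% interval -1.96 to -1.53, adjusted p = 7.52e-07 by limma over all genes tested). Mmp3 was the only member called there, 1 of 9 tested, beside 8.22% of all genes in that comparison (3.37% lower).

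In the Hygro vector Mmp3 stood at 3.30 on both arrays, and in Cluster 2 at 2.27 and 2.10. The groups did not overlap, and 6 genes had a lower fold change. Mmp3 changed by -1.12 on the log2 scale (SE 0.0996, adjusted p = 3.84e-05). Slides 1 and 2 each held 1 array of every Cy3 group, and the change within them was -1.03 and -1.20. Again Mmp3 was 1 member called of 9 tested, against 2.75% of all genes (1.04% lower). With the arrays scaled to equal spread the call was lost (-0.93, adjusted p = 0.249), and the cause was not tested.

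With both empty vectors, Hygro and Puro, Mmp3 stood at 3.38 and 3.39. With both clusters it stood at -0.80 and -0.74. These were the highest and the lowest pairs of values among the 16 arrays, and no other gene of 18961 had a lower fold change. This gave a log2 fold change of -4.16 (SE 0.0996, 95% interval -4.37 to -3.94, adjusted p = 7.6e-11). Within slide 1 it was -4.18 and within slide 2 it was -4.14. Of the 9 members tested, 3 were called, all lower, against 24.8% of all genes (12.8% lower).

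In the Puro vector for CDH1 Mmp3 stood at 1.96 and 1.76, and in CDH1 at 1.54 and 1.73. The arrays of CDH1 lay just below those of its control, with a log2 fold change of -0.23 (adjusted p = 0.168). The order of levels on the Cy3 arrays was Hygro and Puro vectors (3.39 ± 0.00959, mean ± SD, n = 2), Hygro vector (3.30 ± 0.00468), Cluster 2 (2.18 ± 0.120) and Clusters 1+2 (-0.77 ± 0.0390). The first and second of these, both controls, were not called different (0.09, adjusted p = 0.884). On the Cy5 arrays the order was the Puro vector for Cluster 1 (2.50 ± 0.0419), the Puro vector for CDH1 (1.86 ± 0.141), CDH1 (1.63 ± 0.131) and Cluster 1 (0.76 ± 0.172).

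**Figure D1:**
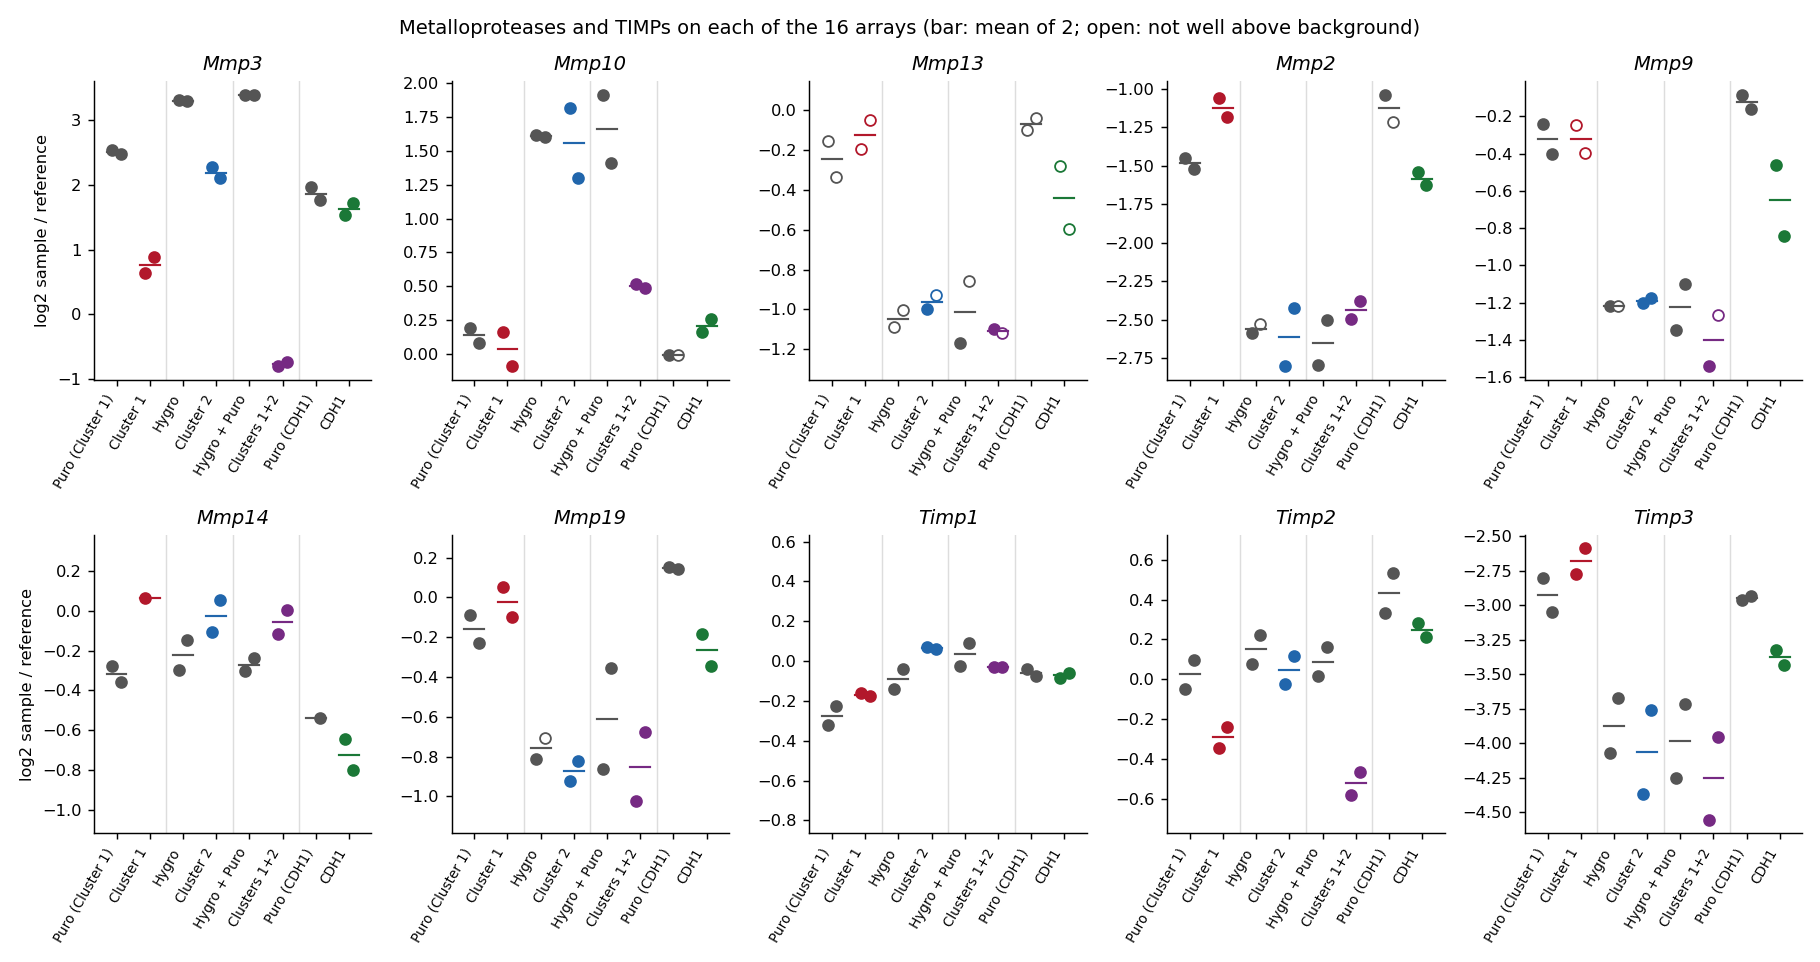
Each panel plots 1 of the 10 genes on the 16 arrays, as the log2 ratio of sample over reference (vertical) in the 8 groups (horizontal), with a bar at the mean of 2 arrays and open points where the probe was not well above background. Mmp3 drops from 3.38 and 3.39 in the Hygro and Puro vectors to -0.80 and -0.74 in Clusters 1+2, while Timp1 stays between -0.32 and 0.09 throughout.

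The effects on Mmp3 differed from each other. The effect of Clusters 1+2 exceeded that of Cluster 2 by -3.04 (SE 0.141, adjusted p = 6.64e-07), with 6.22% of all genes called in this difference. That of Cluster 1 exceeded that of CDH1 by -1.52 (SE 0.141, adjusted p = 1.49e-05, against 17% of all genes). Between Cluster 1 and Cluster 2 the difference was -0.63 (SE 0.141, adjusted p = 0.0354, 2.67% of all genes), and it was called in 7 of 20 alternative settings. That call was lost without either array of the Hygro vector or of the Puro vector for Cluster 1, without Cluster 1 repeat A and without Cluster 2 repeat A (-0.66 to -0.51, adjusted p from 0.0599 to 0.15). The effect of Clusters 1+2 went beyond the sum of the separate effects of Cluster 1 and Cluster 2 by -1.30 on the log2 scale (SE 0.173, adjusted p = 0.00143, 3.82% of all genes). This last value sets arrays of opposite dye side by side, and with the arrays scaled to equal spread it was -0.25 (adjusted p = 0.906). It was not called with outlier-flagged spots kept (-1.29) or in the sample channel alone (-1.10) either.

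The controls of Mmp3 were not equal either. Its level in the Puro vector for CDH1 was 0.64 below that in the Puro vector for Cluster 1 (adjusted p = 0.00126, and 0.0899 with scaled spread), although both carried an empty Puro vector. Between these controls 2 members were called, Mmp3 and Timp2, against 10% of all genes. They lay on slide 3 (for CDH1) and slide 4 (for Cluster 1), so slide and culture cannot be told apart. Set against the other Puro vector, the log2 fold change of Mmp3 was -1.10 in Cluster 1 (adjusted p = 2.35e-05; 8.58% of all genes called) and -0.87 in CDH1 (adjusted p = 0.000665; 2.41% of all genes called). The Hygro and Puro vectors and the Hygro vector, which shared slides, differed in 0 members by limma, and 0 at an unadjusted p under 0.05, against 0.0369% of all genes.

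By the root mean square difference over the 8 overexpression arrays, each minus the mean of its controls, the nearest patterns to Mmp3 among 6851 genes were those of Casp1 (1.01), Phex (1.12), Flt1 (1.13), Medag (1.16) and Galnt15 (1.19). Casp1 codes for caspase 1, Phex for a membrane endopeptidase, Flt1 for a VEGF receptor and Galnt15 for an enzyme of O-glycosylation. All 5 fell in Clusters 1+2, with log2 fold changes of -2.54, -2.29, -2.34, -2.37 and -2.52, each smaller than that of Mmp3. As they were chosen by likeness over these same arrays, and Mmp3 fell most of all genes there, this follows from the choice and is no separate result. In Cluster 1 the range was from -0.85 (Phex) to -0.08 (Galnt15, not called). In CDH1 Flt1 (0.56) and Phex (0.39) rose and Medag fell (-0.53), so the 5 genes parted from each other there.

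**Figure D2:**
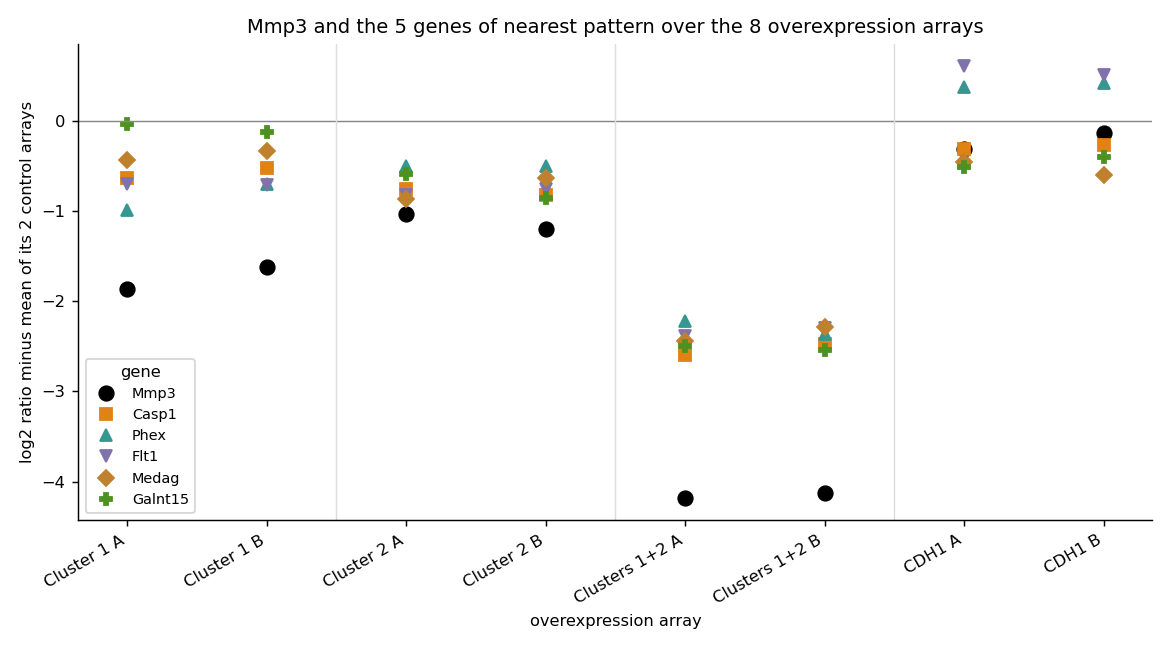
For Mmp3 (black) and the 5 genes nearest to it, the log2 ratio minus the mean of the 2 control arrays (vertical) is plotted for each of the 8 overexpression arrays (horizontal). All 6 genes are lowest on the Clusters 1+2 arrays, where Mmp3 lies below the others. The 5 genes were chosen by likeness to Mmp3 on these same arrays.

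Mmp10, or stromelysin 2, which has much the same substrates as Mmp3, fell 2.24-fold in Clusters 1+2 and was not called in the other comparisons. Its probe, A_51_P120830, lies at chr9:7508134-7508193 (mm7), and its promoter window (chr9:7502092-7502341, plus strand, GRCm38.p6) holds an AP-1 motif 63 to 57 bases and a TATA motif 29 to 24 bases before the start, in capitals.
Mmp10: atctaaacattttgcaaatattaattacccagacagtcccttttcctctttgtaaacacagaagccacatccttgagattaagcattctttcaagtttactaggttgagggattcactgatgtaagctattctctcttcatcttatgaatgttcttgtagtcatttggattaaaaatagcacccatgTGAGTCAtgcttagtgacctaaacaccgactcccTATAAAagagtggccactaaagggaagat
Among the 7 members with a promoter entry, the AP-1 and the TATA letters were found in Mmp3, Mmp10 and Mmp13, and the ETS letters in 5 (Mmp3, Mmp13, Mmp14, Timp1 and Timp3).

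Mmp10 stood at 1.92 and 1.41 in the Hygro and Puro vectors and at 0.51 and 0.49 in Clusters 1+2. In the Hygro vector it was 1.62 and 1.61, and in Cluster 2 it was 1.82 and 1.30. The Clusters 1+2 arrays were the lowest of the Cy3 set, while those of Cluster 2 spanned their controls. The log2 fold change in Clusters 1+2 was -1.16 (SE 0.167, adjusted p = 0.000213), with -1.40 on slide 1 and -0.92 on slide 2, and 142 genes had a lower one. With outlier-flagged spots kept the value was -1.17 but the call was lost (adjusted p = 0.0596), and the cause was not tested. The effect exceeded that of Cluster 2 by -1.11 (SE 0.236, adjusted p = 0.0136), a call kept in 14 of 19 alternative settings.

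On the Cy5 arrays Mmp10 was lower than on any Cy3 array, at 0.19 and 0.08 in the Puro vector for Cluster 1, 0.16 and -0.09 in Cluster 1, -0.01 on both arrays of the Puro vector for CDH1 (repeat B not well above background), and 0.16 and 0.25 in CDH1. Cluster 1 overlapped its control. The fold changes were -0.10 in Cluster 1 (adjusted p = 0.839) and 0.22 in CDH1 (adjusted p = 0.484). In the sample channel alone the CDH1 change of Mmp10 was 0.45 and was called (adjusted p = 0.0466).

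Mmp13, or collagenase 3, which cuts fibrillar collagens, was well above background on 3 of 16 arrays (1 each of Cluster 2, Hygro and Puro vectors, and Clusters 1+2) and was therefore not tested. Its values ran from -0.60 to -0.04 on the Cy5 arrays and from -1.17 to -0.86 on the Cy3 arrays. With no filter its fold change was -0.10 in Clusters 1+2 (adjusted p = 0.723) and -0.37 in CDH1 (adjusted p = 0.0924).

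The gelatinases Mmp9 and Mmp2, which cut type IV collagen of basement membranes and denatured collagen, were the members called in CDH1 cells, both lower, 1.44-fold and 1.38-fold. These were 2 of 9 members tested, against 14.5% of all genes (6.87% lower). Neither was called with a miRNA vector in the fit without blocks on background-corrected ratios.

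Mmp9 stood at -0.08 and -0.16 in the Puro vector for CDH1 and at -0.46 and -0.84 in CDH1. The groups did not overlap, and CDH1 repeat B lay well below repeat A. The change on the log2 scale was -0.53 (SE 0.129, adjusted p = 0.0150). A further probe of the gene, printed in 10 spots, gave -0.12 and -0.11 against -0.44 and -0.67, a change of -0.43 (SE 0.103, adjusted p = 0.0151), with 1 array of each group not well above background. In the Puro vector for Cluster 1 Mmp9 stood at -0.24 and -0.40, between the CDH1 arrays and their own control. Against that vector the CDH1 change was -0.33 (adjusted p = 0.247). Without CDH1 repeat B it was -0.34 (adjusted p = 0.170) against its own vector, and the call was lost too without repeat A of that vector (adjusted p = 0.0853) or without its repeat B (adjusted p = 0.0553).

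In Cluster 1 Mmp9 was not well above background on either array, at -0.25 and -0.40, beside -0.24 and -0.40 in its control. The ratio gave a change of -0.00 (adjusted p = 0.998), and the scanner's processed signals gave -1.17 (adjusted p = 0.0117). In the sample channel alone the group means of Mmp9 were 1.24-fold lower on this probe and 1.14-fold lower on the other. The fit on that channel did not call the gene. There the dim arrays were taken at their own values, which lay above the lowest signal counted as above background. Both groups were in Cy5 on slide 4, but these values are not divided by the reference. In the Cy3 set the values were -1.22 and -1.22 in the Hygro vector, -1.20 and -1.18 in Cluster 2, and -1.34 and -1.10 in the Hygro and Puro vectors. The arrays of Clusters 1+2 gave -1.54 and -1.26. Repeat B of the Hygro vector and of Clusters 1+2 was not well above background. Changes of 0.03 in Cluster 2 and -0.18 in Clusters 1+2 (adjusted p = 0.381) did not pass the test.

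Mmp2 stood at -1.04 and -1.21 in the Puro vector for CDH1 and at -1.54 and -1.63 in CDH1, with no overlap, and repeat B of the vector was not well above background. This was a change of -0.46 (SE 0.124, adjusted p = 0.0250). In the Puro vector for Cluster 1 it stood at -1.45 and -1.52, near the CDH1 arrays, and against that vector the CDH1 change was -0.10 (adjusted p = 0.822). With the scanner's own processed signals the value turned to 0.10. The call was also lost without CDH1 repeat A (-0.50, adjusted p = 0.0720), CDH1 repeat B (-0.42, adjusted p = 0.149) and repeat A of its vector (-0.37, adjusted p = 0.160).

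In Cluster 1 Mmp2 was -1.06 and -1.18, above both controls, with a change of 0.36 (SE 0.124, adjusted p = 0.105). It was called on the 4 arrays of the comparison alone (adjusted p = 0.0147) and with a block for the repeat letter (adjusted p = 0.0302). With the slide as a block it was called too (0.36, adjusted p = 0.0264). That block has a term for slide 2 alone, so on the Cy5 arrays, on slides 3 and 4, it changed the spread and not the estimate. Against the Puro vector for CDH1 the change was 0.0031 (adjusted p = 0.994). The difference between the effects of Cluster 1 and CDH1 on Mmp2 was 0.82 (SE 0.175, adjusted p = 0.00577), each effect being taken against its own Puro vector, and it was 0.08 (adjusted p = 0.934) with processed signals. On the Cy3 arrays Mmp2 ranged from -2.80 to -2.38, and the changes were -0.05 in Cluster 2 and 0.22 in Clusters 1+2 (adjusted p = 0.256).

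Mmp14, or MT1-MMP, the membrane-bound enzyme that activates the MMP2 precursor, was higher in value with each miRNA vector and was called in none of the 4 comparisons. In Cluster 1 this depended on the setting, as it was called in 8 of 14 whole-array settings, with changes from 0.26 to 0.85. It stood at -0.28 and -0.36 in the Puro vector for Cluster 1 and at 0.07 on the single array of Cluster 1 with a valid spot. The fit drops the missing array, and the change was 0.38 (SE 0.113, adjusted p = 0.0689). The other probe of the gene gave -0.71 and -0.47 against -0.07 and -0.39, a change of 0.36 (adjusted p = 0.111). With the slide as a block, which left the estimate as it was, the first probe was called (adjusted p = 0.0285). Against the Puro vector for CDH1, which also had 1 missing array and stood at -0.54, the change was 0.60 (adjusted p = 0.0167). That sets 1 array against 1 array, and the spread behind its p comes from other groups alone.

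In the Cy3 set Mmp14 was -0.30 and -0.15 in the Hygro vector, -0.11 and 0.05 in Cluster 2, and -0.30 and -0.24 in the Hygro and Puro vectors. The arrays of Clusters 1+2 gave -0.12 and 0.01. Both treated pairs lay above both of their controls, with changes of 0.19 (adjusted p = 0.368) and 0.21 (adjusted p = 0.129). With arrays centred on their medians, which raised the all-gene median to 0.135, the Cluster 2 change was 0.54 and was called (adjusted p = 0.0108). In CDH1 it was -0.64 and -0.80, a change of -0.19 (adjusted p = 0.353). The effect of Cluster 1 was above that of CDH1 by 0.57 (SE 0.160, adjusted p = 0.0332), a value that rests on 1 array of Cluster 1 and 1 array of the Puro vector for CDH1. With the mean over both probes it was 0.43 (adjusted p = 0.118), and without CDH1 repeat B 0.49 (adjusted p = 0.0998). Without the Cluster 1 control's repeat A or B it was 0.61 (adjusted p = 0.0527) or 0.53 (adjusted p = 0.0912).

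Mmp19, a widely expressed secreted metalloprotease, was called in no comparison. It stood at 0.15 on both arrays of the Puro vector for CDH1 and at -0.18 and -0.34 in CDH1, a change of -0.41 (SE 0.148, adjusted p = 0.0885). With the slide as a block, which left the estimate as it was, this was called (adjusted p = 0.0163). Against the Puro vector for Cluster 1 the change was -0.11 (adjusted p = 0.853). The Puro vector for Cluster 1 (-0.09 and -0.23) and Cluster 1 (0.05 and -0.10) overlapped each other and lay within the range of these 4 arrays. On the Cy3 arrays the values ran from -1.02 to -0.36, and the change in Clusters 1+2 was -0.24 (adjusted p = 0.291). There it became -0.49 (adjusted p = 0.0217) without repeat A of the Hygro and Puro vectors and turned to 0.01 (adjusted p = 0.974) without their repeat B.

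Among the inhibitors, Timp2 fell 1.53-fold in Clusters 1+2, while Timp1 and Timp3 were called in none of the 4 comparisons. Timp2 lies on the minus strand of chromosome 11, with its probe, A_52_P540219, at chr11:118410877-118410936 (mm7). Its promoter window (chr11:118355412-118355661, minus strand, GRCm38.p6) is shown because the letters CAGGTG, the E-box that the miR-200 targets ZEB1 and ZEB2 are known to bind, lie in it 107 to 102 bases before the start, in capitals.
Timp2: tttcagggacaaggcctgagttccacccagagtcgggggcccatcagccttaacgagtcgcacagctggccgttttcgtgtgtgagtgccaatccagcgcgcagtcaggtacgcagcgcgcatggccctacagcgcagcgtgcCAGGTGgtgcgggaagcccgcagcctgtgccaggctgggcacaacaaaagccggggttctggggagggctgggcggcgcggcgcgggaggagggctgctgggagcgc
Those letters or CACCTG stood in 17.2% of all windows, and among the 7 members with an entry in Timp2 and Timp3. The match is not evidence of binding, and a part of ZEB1 or ZEB2 in the fall of Timp2 was not tested.

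Timp2 stood at 0.02 and 0.16 in the Hygro and Puro vectors and at -0.58 and -0.47 in Clusters 1+2. In the Hygro vector it was 0.08 and 0.22 and in Cluster 2 it was -0.03 and 0.12. The Clusters 1+2 arrays stood apart from the other 6 of the Cy3 set, and Cluster 2 overlapped its control. In Clusters 1+2 Timp2 changed by -0.61 (SE 0.0963, adjusted p = 0.000434), and 704 genes had a lower log2 fold change. Within slide 1 the change was -0.60 and within slide 2 it was -0.63. It exceeded that of Cluster 2 by -0.51 (SE 0.136, adjusted p = 0.0467), a call kept in 9 of 20 alternative settings and lost without either array of Hygro vector or of Clusters 1+2, without Cluster 2 repeat B or without Hygro and Puro vectors repeat B (adjusted p from 0.0534 to 0.156).

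In Cluster 1 Timp2 was -0.34 and -0.24, below -0.05 and 0.10 in its vector, with a change of -0.32 (SE 0.0963, adjusted p = 0.0658). With the slide as a block, which left the estimate as it was, it was called (adjusted p = 0.0278). Of 14 whole-array settings, the other Puro vector among them, it was called in 6, with changes from -0.73 to -0.07. Against the Puro vector for CDH1 (0.33 and 0.53) the change was -0.73 (adjusted p = 0.000487). These controls differed by 0.41 (adjusted p = 0.0168), a call lost without repeat B of the vector for CDH1 (0.31, adjusted p = 0.155) or repeat A of that for Cluster 1 (0.34, adjusted p = 0.140). In CDH1 cells Timp2 was 0.28 and 0.21, a change of -0.19 (adjusted p = 0.254).

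Timp1, which inhibits most secreted metalloproteases, had the narrowest range of the tested members. Over the 16 arrays it ran from -0.32 to 0.09, and the changes were 0.10 in Cluster 1, 0.16 in Cluster 2, -0.06 in Clusters 1+2 and -0.01 in CDH1 (adjusted p = 0.461, 0.301, 0.578 and 0.939). Its other 2 probes, A_51_P512379 and A_51_P512384, gave 0.20 and 0.02 in Cluster 1, 0.15 and 0.12 in Cluster 2, 0.05 and -0.10 in Clusters 1+2, and -0.06 and 0.15 in CDH1. None of these was called (lowest adjusted p over all probes 0.210). Timp3, an inhibitor that stays bound to the matrix, stood far below the reference in every group. It was -2.96 and -2.93 in the Puro vector for CDH1 and -3.32 and -3.43 in CDH1, with no overlap and a change of -0.43 (adjusted p = 0.287). With the slide as a block, which left the estimate as it was, this was called (adjusted p = 0.00770). The fit without blocks pools the spread of all groups. The SD of Timp3 was 0.28 to 0.43 in the Cy3 groups and 0.023 to 0.17 in the Cy5 groups. In Clusters 1+2 it was -4.55 and -3.95 against -4.25 and -3.72, a change of -0.27 (adjusted p = 0.487). Within slide 1 it was -0.30 and within slide 2 it was -0.24, and with the slide as a block the adjusted p was 0.0540. In Cluster 1 (-2.77 and -2.59 against -2.80 and -3.05) the change was 0.24 (adjusted p = 0.681).

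**Figure D3:**
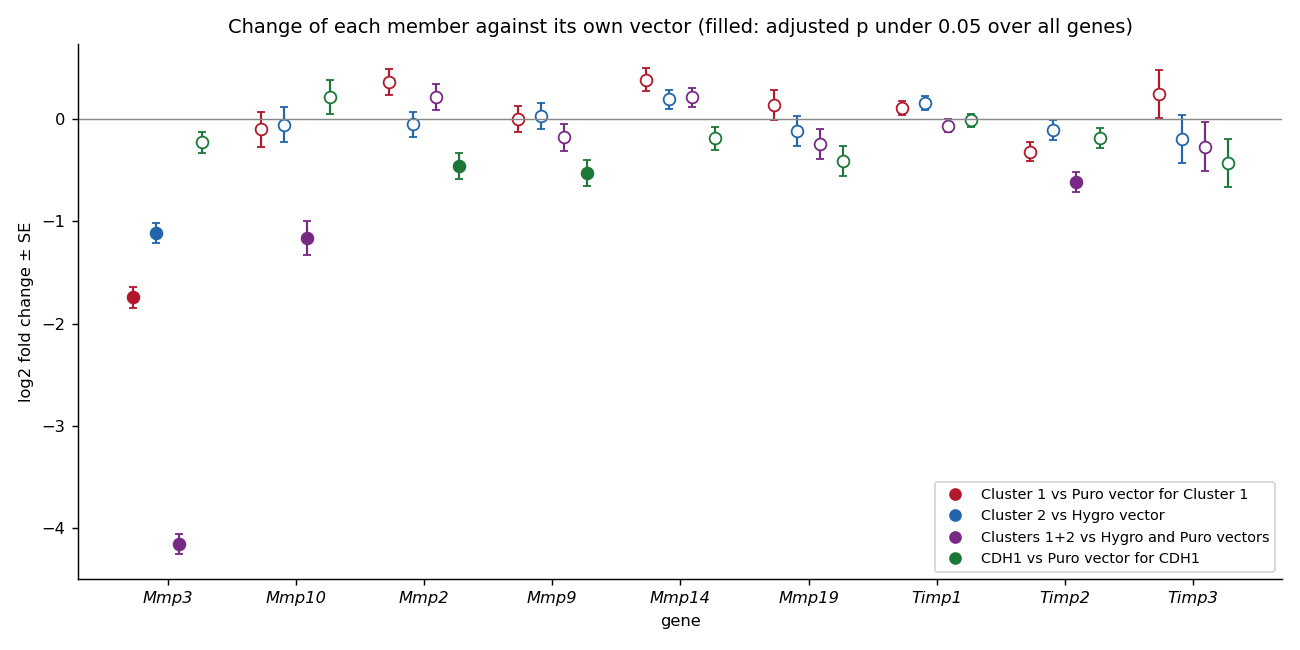
The log2 fold change of each tested member against its own vector (vertical, bars ± SE) is plotted by gene for the 4 overexpressions, filled where the adjusted p over all genes was under 0.05. Mmp3 is filled for the 3 miRNA vectors, down to -4.16, Mmp10 and Timp2 for Clusters 1+2, and Mmp2 and Mmp9 for CDH1.

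Over the 9 tested members the median log2 fold change was 0.10 in Cluster 1, -0.05 in Cluster 2, -0.24 in Clusters 1+2 and -0.23 in CDH1. The median of all genes was 0.01, -0.00, 0.00 and 0.01 in the same order. With arrays centred on their medians in place of loess, the all-gene median moved to 0.135 in Cluster 2 and 0.105 in CDH1. The share of higher genes among those called then went from 62.2% to 93.4% in Cluster 2, from 59.0% to 69.4% in Cluster 1 and from 52.6% to 82.5% in CDH1. In Cluster 2 it was 88.9% with scaled spread, 77.2% in the sample channel alone and 75.3% with outlier-flagged spots kept. Without Hygro vector repeat A the balance turned, with 289 genes higher and 516 lower in Cluster 2 (35.9% higher), and without Cluster 2 repeat A or Hygro vector repeat B it was 80.3% or 73.6% higher. With 2 arrays a group, the groups did not overlap in 51.3% of all genes in Cluster 1, 44.2% in Cluster 2, 57.7% in Clusters 1+2 and 54.3% in CDH1, so a lack of overlap is common here.

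Among 8 other tested metalloproteases of 16 listed, 0 were called by limma in Cluster 1 (1 at an unadjusted p under 0.05) and 0 in Cluster 2 (2 at an unadjusted p under 0.05). The shares of all genes called were 8.22% in Cluster 1, 2.75% in Cluster 2, 24.8% in Clusters 1+2 and 14.5% in CDH1. In Clusters 1+2 only Mmp1a, an interstitial collagenase, fell (-0.99, SE 0.140, adjusted p = 0.000187), from 1.47 and 1.19 in the vectors to 0.36 and 0.32. In CDH1 only Mmp7, or matrilysin, rose (0.25, adjusted p = 0.0499), and against the other Puro vector its change was 0.15 (adjusted p = 0.403). Its call was lost in 8 of 12 whole-array settings and with any of 4 arrays left out.

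Of 7 tested genes that inhibit or clear metalloproteases, Thbs1, coding for thrombospondin 1, which takes part in their clearance, rose in Cluster 1 (0.82), Cluster 2 (1.17) and Clusters 1+2 (1.85, adjusted p = 9.24e-06). It stood at -1.92 and -1.63 in the Hygro and Puro vectors and at 0.04 and 0.10 in Clusters 1+2. Of 13 whole-array settings the Thbs1 call was lost in 2 in Cluster 1, 4 in Cluster 2 and 0 in Clusters 1+2. In Cluster 1 it was also lost with any of 4 arrays left out, while in Cluster 2 and Clusters 1+2 it was lost with 0 of them. Reck, a membrane-anchored inhibitor, fell in Cluster 2 (-0.55) and Clusters 1+2 (-0.45), calls lost in 5 and 2 of 12 such settings. In all 1 gene was called in Cluster 1, 2 in Cluster 2 (1 higher), 4 in Clusters 1+2 (1 higher) and 2 in CDH1, both lower, against 8.22%, 2.75%, 24.8% and 14.5% of all genes. Lrp1, the endocytic receptor for protease and inhibitor complexes, fell in Clusters 1+2 (-1.06) and in CDH1 (-0.56), and Pcolce, a procollagen protease enhancer, in the same groups (-0.93 and -0.77).

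Of 11 activators and docking partners, 1 was called in Cluster 1 (Cd63, -0.34), 0 in Cluster 2 by limma (1 at an unadjusted p under 0.05), 3 in Clusters 1+2 and 1 in CDH1, beside the same shares of all genes (8.22%, 2.75%, 24.8% and 14.5%). Furin, the convertase that processes the MMP14 precursor, rose in Clusters 1+2 (0.50), while Cd151 (-0.45) and Itgb3 (-0.37) fell. Cd151, a tetraspanin, fell in CDH1 too (-0.56). In plasminogen activation, 0 of 10 tested genes were called by limma in Cluster 1 or in Cluster 2 (3 and 2 at an unadjusted p under 0.05). With both clusters, where 24.8% of all genes were called, 2 rose and 1 fell, among them Plau, the urokinase (0.65), and S100a10 (-0.52). In CDH1 Plaur, the urokinase receptor (0.63), and Plgrkt (0.36) rose, 2 genes of 10, against 14.5% of all genes.

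Of 16 tested ADAM and ADAMTS proteases, relatives of the metalloproteases that shed membrane proteins or cut proteoglycans, 3 rose in Cluster 1 (Adamts1 0.42, Adam8 0.31 and Adam9 0.21) and 1 fell in Cluster 2 (Adam15, -0.30), where 8.22% and 2.75% of all genes were called. Of 13 whole-array settings Adam9 lost its call in 9 and Adam8 in 8 in Cluster 1, and Adam15 in 8 in Cluster 2, and all 3 lost it with any of 4 arrays left out. In Clusters 1+2, 3 rose and 2 fell, with Adamts1 at 1.14, Adamts7 at -0.74, Adam15 at -0.51 and Adam8 at 0.46. In CDH1, where 14.5% of all genes were called (24.8% in Clusters 1+2), 4 fell, Adam8 (-2.14), Adamts7 (-1.11), Adam15 (-0.48) and Adam17 (-0.38). The Adam8 value rests on 1 CDH1 array (-2.80, the other spot missing) against -0.71 and -0.61, while the other Puro vector stood at -2.36 on both arrays, so that the change against it was -0.44 (adjusted p = 0.0382).

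Among 10 tested cathepsins and cystatins, 0 were called by limma in Cluster 1 (2 at an unadjusted p under 0.05) and 1 in Cluster 2 (Cst6, -0.30), against 8.22% and 2.75% of all genes. Cst6 lost that call in 9 of 13 whole-array settings and with any of 4 arrays left out. With both clusters, 5 fell and 1 rose, against 24.8% of all genes called. The inhibitors Cst6 (-0.94) and Cstb (-0.71) and the lysosomal proteases Ctsb (-0.66) and Ctsd (-0.55) were among those that fell. In CDH1 Ctsh (0.62) and Cst6 (0.45) rose and Ctsb (-0.63) and Cstb (-0.55) fell, against 14.5% of all genes called.

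Of 13 tested AP-1 and ETS transcription factors, families known to act on metalloprotease promoters, 3 rose and 2 fell in Cluster 1, 3 and 2 in Cluster 2, 4 and 4 in Clusters 1+2, and 1 and 4 in CDH1. The shares of all genes called were 8.22%, 2.75%, 24.8% and 14.5%. Ets2 rose with each miRNA vector (0.61, 0.76 and 1.51) and so did Jund (0.45, 0.45 and 1.57), while Jun fell (-0.37, -0.36 and -0.81). Of 13 whole-array settings Jund lost its call in 2 in Cluster 1 and 9 in Cluster 2, and Jun in 2 and 5. Ets2 lost its call in 1 and 2 of 12. In Clusters 1+2 each lost it in 0. With 1 array left out, Jund lost its call in 3 cases in Cluster 1 and 4 in Cluster 2. Jun lost its call in 0 and 2, and Ets2 in 0 and 0. Etv1 fell in Clusters 1+2 (-1.14). In CDH1 Etv1 (-0.52), Jun (-0.37) and Ets2 (-0.32) fell and Junb rose (0.36).

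Of 15 tested matrix substrates, 3 rose and 1 fell in Cluster 1, 3 rose in Cluster 2, 3 rose and 3 fell in Clusters 1+2, and 5 fell in CDH1, against 8.22%, 2.75%, 24.8% and 14.5% of all genes called. The type IV collagen genes of basement membranes, Col4a1 (0.58, 0.47 and 0.54) and Col4a2 (0.39, 0.39 and 0.61), rose with each miRNA vector. Of 13 whole-array settings Col4a1 lost its call in 1, 7 and 0, in the same order, and Col4a2 in 2, 7 and 1. With 1 array left out, Col4a1 lost its call in 2, 4 and 0 cases, and Col4a2 in 2, 3 and 0. Sparc fell in Clusters 1+2 (-0.66). In CDH1 Fn1, coding for fibronectin (-1.13), Sparc (-0.99), Dcn (-0.80) and Lamc1 (-0.58) were among those that fell. Dcn lost its call with any of 4 arrays left out, and the other 3 named here with 0 of them.

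Over the 8 lists the median log2 fold change ran from -0.04 to 0.13 in Cluster 1, -0.16 to 0.08 in Cluster 2, -0.24 to 0.05 in Clusters 1+2 and -0.34 to -0.06 in CDH1, the lowest being that of the matrix substrates. Of the list genes called in Cluster 1 (14) and Cluster 2 (12), 0 kept the limma call in every one of 13 whole-array settings, against 16 of 36 in Clusters 1+2.

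Most CDH1 calls of these lists depended on which Puro vector was the control. Against the Puro vector for Cluster 1, the matrix substrates called in CDH1 numbered 0 of 15 by limma (5 at an unadjusted p under 0.05), with Fn1 at -0.22 (adjusted p = 0.347) and Sparc at -0.00 (adjusted p = 0.996). There Pcolce was 0.18 and Lrp1 -0.15, neither called, and the share of all genes called was 2.41%. Adam8, Adamts7 (-0.61), Ctsh (0.65) and Etv1 (-0.35) were called in the same direction against both vectors.

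**Figure D4:**
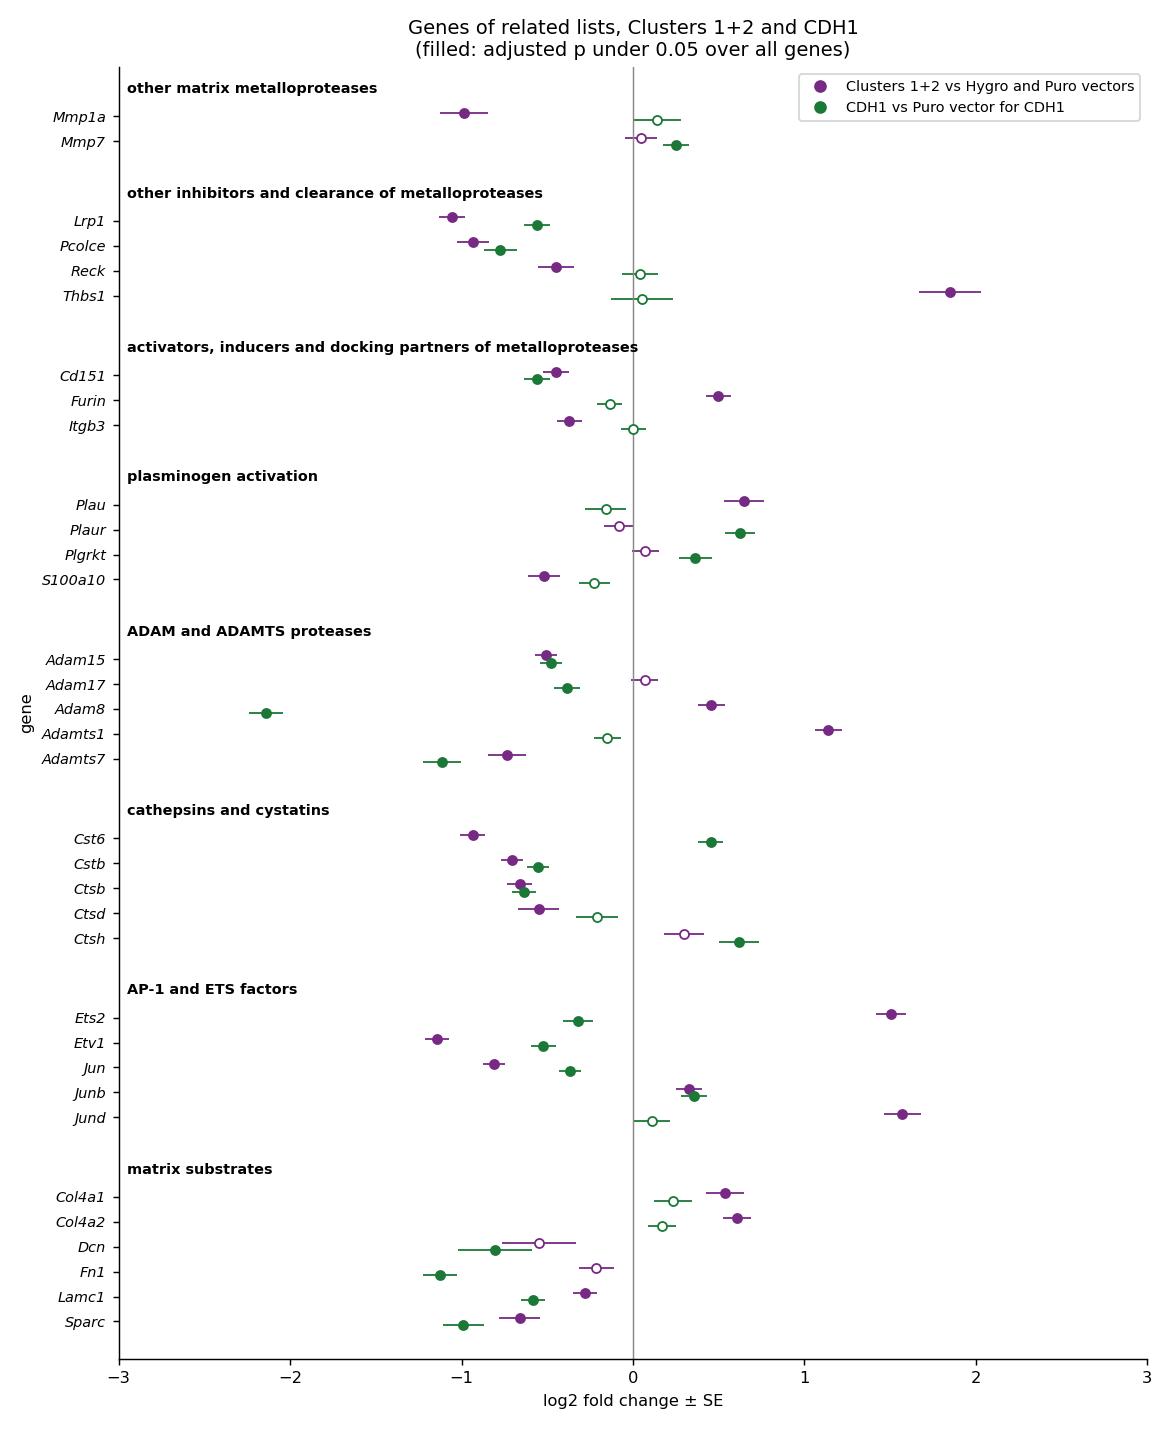
For genes of the related lists with the largest called changes, the log2 fold change ± SE (horizontal) is plotted by gene for Clusters 1+2 and for CDH1, each against its own vector, filled where called. Thbs1 (1.85), Jund (1.57) and Ets2 (1.51) lie furthest to the right for Clusters 1+2, and Adam8 (-2.14) furthest to the left for CDH1.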

How the data were processed

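RNA of 16 samples (175 ng per labelling) was hybridised to Agilent mouse arrays against a common reference. The deposited files hold scanner intensity values, per the file headers extracted with Agilent Feature Extraction 9.5.3.1; they also hold the authors' log10 ratio per spot, which was not used for the main values. A deposited value table holds the ratio of sample over reference on a linear scale, which matched the scanner's processed ratio for all 16 arrays (largest log10 difference 8.06e-08, column medians 0.903 to 1.17).

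In R 4.3.3 with limma 3.58.1, outlier-flagged spots were set missing. Mean signals were corrected by normexp (offset 50) against the local background median, followed by loess within each array, in which control spots had weight 0. Ratios were turned to sample over reference in log2. A probe was kept if well above background on both arrays of at least 1 group, and the brightest probe stood for a gene. A single fit of 8 group means, with Benjamini-Hochberg adjustment over all genes, gave every p (called under 0.05). The scripts were tested on simulated data.

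The members and lists were chosen with earlier results of these data known. The members are named on every probe, other list genes only if called, at most the 4 of largest change per list and comparison (some genes that the rule would name are not reported here), and the 5 genes nearest to Mmp3 among those measured on all arrays. Samples with the same repeat letter correlated in their deviations at -0.01 (Cluster 1), 0.28 (Cluster 2), 0.33 (Clusters 1+2) and 0.01 (CDH1), with 2 pairs in each. Repeats A and B of the Cy3 groups lay on separate slides, so for them the letter is also the slide. Alternatives covered background, scaling, filter, probes, blocks, the control and each array left out. Sequences are RefSeq's (GRCm38.p6); Mmp2, Mmp9 and Mmp19 had no matching promoter entry.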

Additional observations from a re-analysis of the deposited data

Results flagged for a closer look

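Effects of the same kind of contrast, each overexpression against its own vector, differed between groups in 7 cases by a limma test of the difference itself. The shares of all genes called were 6.22% for Clusters 1+2 minus Cluster 2, 17% for Cluster 1 minus CDH1 and 2.67% for Cluster 1 minus Cluster 2. Between Clusters 1+2 and Cluster 2 the difference in log2 fold change was -3.04 for Mmp3 (adjusted p = 6.64e-07), -1.11 for Mmp10 (adjusted p = 0.0136) and -0.51 for Timp2 (adjusted p = 0.0467), all 3 lower with both clusters. Between Cluster 1 and CDH1 it was -1.52 for Mmp3 (adjusted p = 1.49e-05), 0.82 for Mmp2 (adjusted p = 0.00577) and 0.57 for Mmp14 (adjusted p = 0.0332). The Mmp14 value rests on 1 array of Cluster 1 and 1 array of the Puro vector for CDH1, and was 0.43 (adjusted p = 0.118) with the mean over its probes. The Mmp2 value was 0.08 (adjusted p = 0.934) with processed signals. The Puro vector for CDH1 itself differed from that for Cluster 1 by -0.64 for Mmp3, 0.36 for Mmp2 and -0.22 for Mmp14. Between Cluster 1 and Cluster 2, measured in opposite dyes, the difference was -0.63 for Mmp3 (adjusted p = 0.0354). Of the alternative settings, Mmp3 kept its call in 20 of 20 for Clusters 1+2 minus Cluster 2, in 20 of 20 for Cluster 1 minus CDH1 and in 7 of 20 here. Mmp10 kept its call in 14 of 19, Timp2 in 9 of 20, Mmp2 in 15 of 19 and Mmp14 in 11 of 18. Groups of 2 arrays were too small to look for single arrays that stand apart.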

How the results depend on the processing

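Across the whole-array alternatives and arrays left out, Mmp3 kept its call in 18 of 18 settings in Cluster 1 (-2.13 to -1.10) and in 17 of 17 in Clusters 1+2 (-4.53 to -3.30), Timp2 kept its call in 17 of 17 in Clusters 1+2 (-0.79 to -0.47), and Mmp10 in 15 of 16. In CDH1 Mmp9 kept its call in 11 of 17 settings (-1.76 to -0.33, the latter against the other Puro vector) and Mmp2 in 6 of 17 (-0.88 to 0.10). Where a call was lost or gained, the cause was not tested, except that fits on fewer arrays or genes differ in what they test. Signal over background limits Mmp13, Mmp9 and Mmp2 most. Called genes of the other lists kept the call in all of 13 settings in 16 of 36 cases (Clusters 1+2), 12 of 24 (CDH1), 0 of 14 (Cluster 1) and 0 of 12 (Cluster 2); the other Puro vector is not among these 13, and against it 4 list genes were called in CDH1.

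With the replicate block, members called became 4 in Cluster 1, 4 in CDH1, 6 in the difference of Cluster 1 and CDH1, 0 in that of Cluster 1 and Cluster 2, and 2 in that of Clusters 1+2 and the sum of both; with the slide as a block they were 4, 4, 6, unchanged and 2. On the 4 arrays of the comparison alone they were 4 in Cluster 1 and 4 in CDH1. The repeat letters of Cluster 1 and CDH1 were not shown to pair samples. The slide block has a term for slide 2 alone, so for CDH1 and Cluster 1, on slides 3 and 4, it changed the spread and not the estimate.

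Processed signals gave 2 members called in Cluster 1 (with Mmp9 at -1.17, adjusted p = 0.0117), 1 in CDH1, 1 in Clusters 1+2 minus Cluster 2, 1 in Cluster 1 minus CDH1 and 0 in Cluster 1 minus Cluster 2, and turned Mmp2 (0.27) and Mmp19 (0.10) in Cluster 2, Mmp2 in CDH1 (0.10) and Mmp2 in Clusters 1+2 minus Cluster 2 (-0.050). Median centring gave 2 in Cluster 1, 3 in Cluster 2 (where 2122 genes were then called higher and 150 lower, from 324 and 197) and 5 in Clusters 1+2 minus the sum, and turned Timp2 (0.25), Timp3 (0.072), Mmp2 (0.14) and Mmp10 (0.033) in Cluster 2, Timp2 (0.013) and Timp1 (0.19) in CDH1 and Mmp14 in Clusters 1+2 minus Cluster 2 (-0.30). The calls gained in Cluster 2 were Mmp14 (0.54) and Timp1 (0.48), both higher. In CDH1 Mmp19 gained a call (-0.44, adjusted p = 0.0475) and Mmp2 lost its call (-0.32, adjusted p = 0.0659). Scaling to equal spread gave 3 in Cluster 1, 0 in Cluster 2 (-0.93 for Mmp3), 1 in CDH1, 1 in Clusters 1+2 minus Cluster 2, 0 in Cluster 1 minus Cluster 2 and 0 against the sum, and turned Mmp2 in Cluster 2 (0.013) and Timp3 in Clusters 1+2 minus Cluster 2 (0.0040). The sample channel alone gave 2 in Cluster 1, 1 in CDH1, 0 in Cluster 1 minus Cluster 2 and 0 against the sum, and turned Mmp19 (-0.31) and Mmp10 (0.0053) in Cluster 1, Mmp19 (0.0034) and Mmp9 (-0.0071) in Cluster 2, Timp3 in Clusters 1+2 minus Cluster 2 (0.14) and Timp2 in Cluster 1 minus CDH1 (0.23). The member called there in CDH1 was Mmp10, higher (0.45, adjusted p = 0.0466), while Mmp2 (adjusted p = 0.409) and Mmp9 (adjusted p = 0.0517) lost their calls.

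Offset 10 gave 1 in CDH1, 1 in Clusters 1+2 minus Cluster 2 and 0 in Cluster 1 minus Cluster 2, with Mmp2 at 0.048 in Cluster 2. Keeping outlier-flagged spots gave 0 in CDH1, 1 in Clusters 1+2 minus Cluster 2, 0 in Cluster 1 minus Cluster 2, 0 against the sum and 1 between the Puro vectors, and turned Mmp9 (-0.35) and Mmp10 (0.41) in Cluster 2, Mmp3 in CDH1 (0.14) and Timp3 (0.21), Mmp19 (0.093) and Mmp9 (0.20) in Clusters 1+2 minus Cluster 2. A filter on all 16 arrays gave 3 in Cluster 1 and 0 in CDH1, where Mmp2 and Mmp9 were no longer tested, no filter gave 0 in Cluster 1 minus Cluster 2, and the trended robust fit gave 1 in CDH1. The mean over probes turned Mmp9 in Cluster 1 (0.058) and Cluster 2 (-0.0031), Timp1 in CDH1 (0.025) and Mmp14 in Clusters 1+2 minus Cluster 2 (-0.033). The other Puro vector, an alternative chosen after seeing the data, gave 3 in Cluster 1 and 1 in CDH1, and turned Timp1 (-0.11), Mmp19 (-0.17) and Mmp10 (0.044) in Cluster 1 and Timp2 (0.22) and Timp1 (0.20) in CDH1.

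With each array left out in turn, members called ranged from 1 to 1 in Cluster 1 and Cluster 2, 3 to 4 in Clusters 1+2, 0 to 1 in CDH1, 2 to 3 in Clusters 1+2 minus Cluster 2, 2 to 4 in Cluster 1 minus CDH1, 0 to 1 in Cluster 1 minus Cluster 2, 1 to 2 against the sum and between the Puro vectors, and 0 to 0 between the Hygro controls. Changes of uncalled members that turned sign were Mmp9 (-0.081 to 0.079) and Mmp10 (-0.23 to 0.024) in Cluster 1, Timp3 (-0.50 to 0.11), Mmp2 (-0.24 to 0.14) and Mmp10 (-0.31 to 0.21) in Cluster 2, Timp3 (-0.57 to 0.032) and Mmp19 (-0.49 to 0.012) in Clusters 1+2, Timp1 in CDH1 (-0.031 to 0.0036), and Mmp14 (-0.062 to 0.10), Timp3 (-0.38 to 0.23) and Mmp19 (-0.38 to 0.13) in Clusters 1+2 minus Cluster 2. A group left with 1 array was assumed to vary like the others.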
